A study of Mus musculus with 8 samples.

Results

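H3K27Ac peaks centred on coding exons were examined in ventricles of mice at postnatal day 7 (P7). Of 45987 peaks in the deposited table, 537 were under 10000 bp wide, had their centre in a coding exon of a curated RefSeq messenger RNA, and had that centre more than 2000 bp from every curated transcription start. They fell in 511 genes, of which 490 held 1 such peak, 19 held 2, *Dip2b* held 3 and *Ttn* held 6. The rule used position and width and no H3K27Ac value. The authors had called the peaks and their edges from H3K27Ac reads, however. A peak seen in only the 2 hearts of one group could enter. The 2 control hearts were *Arid1a* f/f, with both *Arid1a* alleles floxed and no Cre. The 2 *Arid1a cKO* hearts were aMHC-Cre;*Arid1a* f/f littermates, so both groups carried the floxed alleles. The αMHC promoter drives Cre in cardiomyocytes, whereas the chromatin came from whole ventricles, which also hold fibroblasts, endothelial cells and other cells. Fewer cells of a type and less of the mark per cell therefore cannot be told apart. Each heart gave 1 ChIP library and 1 input library, for 8 libraries in all.

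Acetylation of lysine 27 on histone H3 marks active promoters and enhancers. Most enhancers lie in introns or between genes, but a regulatory element can also overlap protein-coding sequence, where the same bases carry codons and binding sites. ARID1A is a DNA-binding subunit of the canonical BAF form of the SWI/SNF complex, which moves and evicts nucleosomes and so affects the access of transcription factors to such elements.

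The values are the authors' group means, given as mean normalized reads per peak, and a difference is the log2 of the *Arid1a cKO* mean over the control mean. Per-sample values were not in the table used here, so no spread between the 2 hearts of a group, no test and no depth per library can be given for any peak. A peak is called lower or higher where the group means differed at least 2-fold. The floor was set at 3 normalized reads, and where one group's mean did not exceed it, the fold was taken against the floor and is given as a bound (at least).

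6 peaks that the results turn on are shown by the 200 bases around their centre, from the GRCm38 reference (mm10), on the strand of the gene and read 5′ to 3′. Capitals mark coding bases and lower case marks intron, so the lines show how much of the peak's middle was protein-coding. *Pfkfb2*, *Zbtb20*, *Cpn2* and *Lama5* were far lower in *Arid1a cKO* and *Lrrc69* and *Tdrd12* were higher.
*Pfkfb2*, chr1:130699982-130700181 (- strand): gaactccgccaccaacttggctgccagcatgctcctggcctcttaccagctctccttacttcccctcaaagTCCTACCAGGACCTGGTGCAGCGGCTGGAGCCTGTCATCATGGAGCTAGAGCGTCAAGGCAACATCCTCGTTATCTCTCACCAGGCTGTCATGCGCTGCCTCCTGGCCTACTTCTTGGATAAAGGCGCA
*Zbtb20*, chr16:43610485-43610684 (+ strand): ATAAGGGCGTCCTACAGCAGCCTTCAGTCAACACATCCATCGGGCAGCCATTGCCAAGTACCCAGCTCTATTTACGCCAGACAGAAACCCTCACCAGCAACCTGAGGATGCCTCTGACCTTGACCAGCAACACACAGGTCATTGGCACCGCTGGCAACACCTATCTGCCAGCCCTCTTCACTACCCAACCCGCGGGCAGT
*Cpn2*, chr16:30260293-30260492 (- strand): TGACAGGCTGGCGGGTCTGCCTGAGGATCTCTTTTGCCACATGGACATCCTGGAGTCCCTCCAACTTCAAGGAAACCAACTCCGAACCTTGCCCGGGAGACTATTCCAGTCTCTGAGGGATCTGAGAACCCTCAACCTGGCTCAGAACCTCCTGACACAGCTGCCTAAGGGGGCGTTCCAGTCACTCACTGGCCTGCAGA
*Lama5*, chr2:180207150-180207349 (- strand): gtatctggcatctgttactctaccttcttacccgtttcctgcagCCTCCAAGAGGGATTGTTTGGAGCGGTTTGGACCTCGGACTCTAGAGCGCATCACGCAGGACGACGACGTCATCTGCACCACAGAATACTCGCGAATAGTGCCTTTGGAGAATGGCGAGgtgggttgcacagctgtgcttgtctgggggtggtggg
*Lrrc69*, chr4:14773574-14773773 (- strand): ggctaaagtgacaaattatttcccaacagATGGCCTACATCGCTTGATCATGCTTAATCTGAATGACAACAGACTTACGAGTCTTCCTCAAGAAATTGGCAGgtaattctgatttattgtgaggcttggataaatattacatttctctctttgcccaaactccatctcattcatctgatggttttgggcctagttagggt
*Tdrd12*, chr7:35485189-35485388 (- strand): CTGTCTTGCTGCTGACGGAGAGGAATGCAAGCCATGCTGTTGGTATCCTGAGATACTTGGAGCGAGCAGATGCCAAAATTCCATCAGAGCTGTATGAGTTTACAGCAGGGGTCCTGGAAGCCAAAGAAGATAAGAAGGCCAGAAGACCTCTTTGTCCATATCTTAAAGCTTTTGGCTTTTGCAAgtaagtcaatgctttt

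In these windows *Zbtb20* and *Cpn2* were coding throughout, while *Lrrc69* held 73 coding bases in 1 short exon. *Pfkfb2* and *Lama5* crossed splice sites, with 129 and 119 coding bases. The windows are centred on coding bases, so they overstate the coding part of the whole peaks. That part was 75.6% in *Zbtb20*, 46.3% in *Cpn2*, 16.3% in *Tdrd12*, 16.0% in *Lama5*, 12.3% in *Pfkfb2* and 5.84% in *Lrrc69*.

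Of the 537 coding-exon peaks, 87 were lower (16.2%) and 33 were higher (6.15%) in *Arid1a cKO*, against 10.6% lower and 4.57% higher among all 45987 peaks. The other 417 differed less than 2-fold, and 191 were within 0.25 of 0 on the log2 scale. The median difference was -0.03, with quartiles of -0.47 and 0.33. Deposited differences ranged from -6.44 to 3.70, and the peaks at both ends had a group mean at the floor. Of the 537 peaks, 279 were below 0 and 255 above 0. The 87 lower peaks lay in 87 different genes. At 3-fold, 60 peaks were lower (11.2%) and 11 higher (2.05%), against 5.6% and 1.35% of all peaks. At 1.5-fold, 118 were lower (21.97%) and 73 higher (13.6%), against 17.3% and 12% of all peaks.

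At 2-fold, the shares were close to those of intronic peaks chosen by the same width and distance. Of 17846 intronic peaks, 15.5% were lower and 4.86% higher, with a median difference of -0.05. At 3-fold, 8.02% of intronic peaks were lower and 1.38% higher, less than in coding exons, while at 1.5-fold 24.9% were lower, more than in coding exons. Intergenic peaks numbered 14350, of which 11.6% were lower and 6.88% higher, with a median of 0.08. Of 11880 peaks within 2000 bp of a curated start, 2.14% were lower and 1.59% higher. No test was made between these classes, since peaks of the same 4 ChIP libraries are not replicates.

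**Figure D1:**
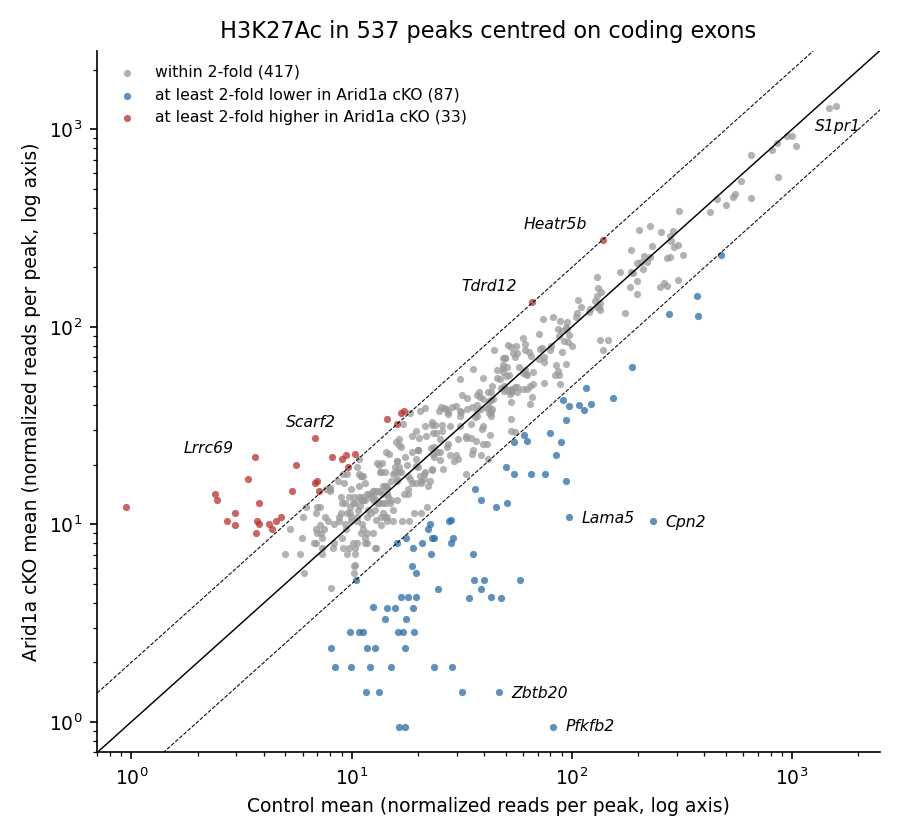
Mean H3K27Ac of each of the 537 coding-exon peaks in control (x axis) and *Arid1a cKO* (y axis), in normalized reads per peak on log axes, with the solid line at equality and dashed lines at 2-fold. The 87 lower peaks (blue) reach down to means of about 1 read, while the 33 higher peaks (red) lie mostly at low means, apart from *Tdrd12* and *Heatr5b*.

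The lowest deposited difference, at a floor-level mean in *Arid1a cKO*, belonged to *Pfkfb2*, which encodes the heart isoform of the enzyme that makes and degrades fructose 2,6-bisphosphate, a regulator of glycolysis. The peak at chr1:130698870-130701295 was centred on coding exon 11 of 15. It had 82.1 normalized reads in control and 0.946 in *Arid1a cKO*, which puts it at least 27.4-fold lower. An intronic *Pfkfb2* peak was lower as well, from 93.7 to 18.5 reads (-2.34). The peak over the start of the gene had 560.3 and 430.5 reads (-0.38), a difference under 2-fold. The gene thus had its differences of more than 2-fold away from its start.

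*Zbtb20*, a zinc finger transcription factor, held another of the 10 lowest peaks with at least 20 reads in the higher group. At chr16:43609910-43611260, it lay over coding exon 3 of 4, and 75.6% of it was coding. It had 46.9 reads in control and 1.42 in *Arid1a cKO*, at least 15.6-fold lower. Of 28 intronic peaks of *Zbtb20*, 2 were lower and their median difference was -0.34, and the start peak stood at -0.18. *Cpn2* encodes the regulatory subunit of carboxypeptidase N, a plasma enzyme known from the liver. Its single coding exon carried a peak at chr16:30258620-30262166 with 234 reads in control and 10.4 in *Arid1a cKO*, 22.5-fold lower and with neither mean at the floor. *Cpn2* had no other peak over its start or in an intron.

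*Lama5*, the laminin α5 chain of basement membranes, was lower over coding exon 4 of 79 at chr2:180205666-180208835. The peak had 97.0 reads in control and 10.9 in *Arid1a cKO* (8.88-fold lower). A wider *Lama5* intronic peak had 177 and 195 reads (0.14), and a peak at the start had 35.0 and 26.5 (-0.40), so the coding-exon peak stood apart from its neighbours. The remaining lowest peaks included *Slc25a42*, a mitochondrial carrier of coenzyme A, at 58.1 and 5.21 reads (11.2-fold lower). *Slc25a42* was also lower at its intronic peak (-1.33), and its start peak stood at -0.89. *Chd6*, a chromodomain remodeller, had 42.8 and 4.29 reads (9.99-fold lower). *Sptbn5*, a β-spectrin, had 47.8 and 4.26 reads (11.2-fold lower) in one coding-exon peak, while its other one had a difference of 0.46. In *Lrrc29*, *Tpcn1*, a lysosomal two-pore channel, and *Itgal*, the integrin αL of leukocytes, control means of 31.8, 28.6 and 23.8 reads stood against floor-level means in *Arid1a cKO*, which gives at least 10.6-fold, 9.55-fold and 7.92-fold lower.

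Of 12 higher peaks with at least 20 reads in the higher group, *Lrrc69* had the largest difference. It had 3.63 reads in control and 21.9 in *Arid1a cKO* (6.02-fold higher) over coding exon 3 of 8, at chr4:14773050-14774299. *Scarf2*, a scavenger receptor family gene, had 6.82 and 27.5 reads (4.03-fold higher) in its last coding exon, with a start peak at 0.48. The next 8 were *Arhgap8*, *Cep41*, *Catip*, *Vil1*, *Itpr1*, *Msl3l2*, *Fer* and *Tdrd12*, with differences between 1.43 and 1.02. *Itpr1* encodes an IP3 receptor that releases calcium from the endoplasmic reticulum, and its peak had 10.3 and 22.8 reads. *Tdrd12*, a Tudor domain gene of the germline piRNA pathway, had the highest level among these 10, with 66.3 reads in control and 134 in *Arid1a cKO* at chr7:35483821-35486758, and no other peak over its start or introns. One stronger peak, *Heatr5b* at 138 and 276 reads, reached the 2-fold limit with a difference of 1 and was picked after its value was seen. These 10 came from 12 higher peaks, while the 10 lowest came from 54 lower peaks with at least 20 reads. The sizes of the 2 sets of differences therefore cannot be compared directly. The limit of 20 reads also left out large deposited differences on both sides, such as *Dcp1b* at 3.70 and *Pan2* at -4.11. In both of these peaks a group mean was at the floor, so the sizes are not exact.

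**Figure D2:**
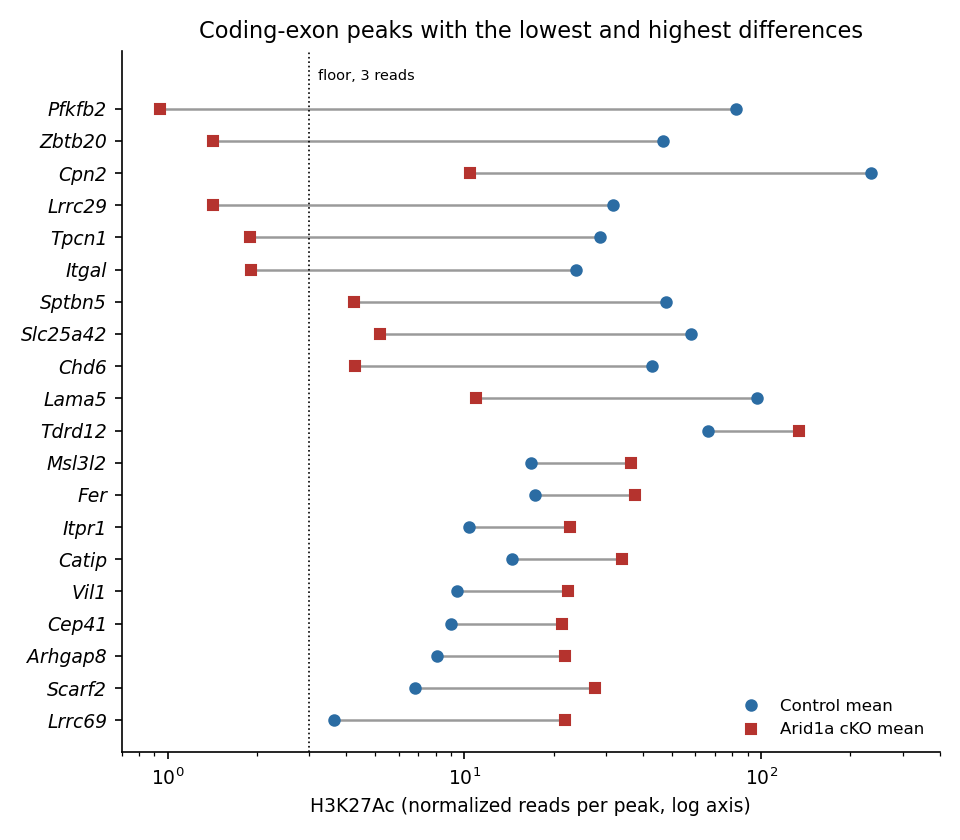
Control means (blue circles) and *Arid1a cKO* means (red squares) of the 10 coding-exon peaks with the lowest and the 10 with the highest difference among peaks with at least 20 reads in the higher group, in normalized reads per peak on a log axis, with the floor of 3 reads as a dotted line. In *Pfkfb2*, *Zbtb20*, *Lrrc29*, *Tpcn1* and *Itgal* the *Arid1a cKO* mean lies under the floor, whereas *Cpn2* goes from 234 to 10.4 reads above it.

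The shares called differed with the level of the peak. Of 248 coding-exon peaks with a mean under 20 reads over all samples, 48 were lower and 27 higher. Of 133 peaks with 20 to 50 reads, 20 were lower and 4 higher, and of 112 with 50 to 200 reads, 16 were lower and 1 higher. Among the 44 strongest, with 200 reads or more, 3 were lower and 1 higher. The share of lower peaks went from 19.4% in the weakest to 6.82% in the strongest of these 4 levels, while intronic peaks went from 18.8% to 5.34% over the same levels. Of the 33 higher calls, 27 were thus at peaks under 20 reads, as were 664 of 868 in introns.

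The 3 strong peaks called lower were *Nmt1*, *Stard3* and *Lamb3*, named here because they were the only ones. *Nmt1*, an N-myristoyltransferase, went from 372 to 114 reads (3.27-fold lower). *Stard3*, a cholesterol-binding protein of late endosomes, had 370 and 144 reads (2.57-fold lower) at chr11:98376452-98381394. The nearest curated start to the *Stard3* peak, 4888 bp away, was that of *Tcap*, which encodes the Z-disc protein telethonin. *Lamb3*, the laminin β3 chain, had 478 and 232 reads (2.06-fold lower).

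**Figure D3:**
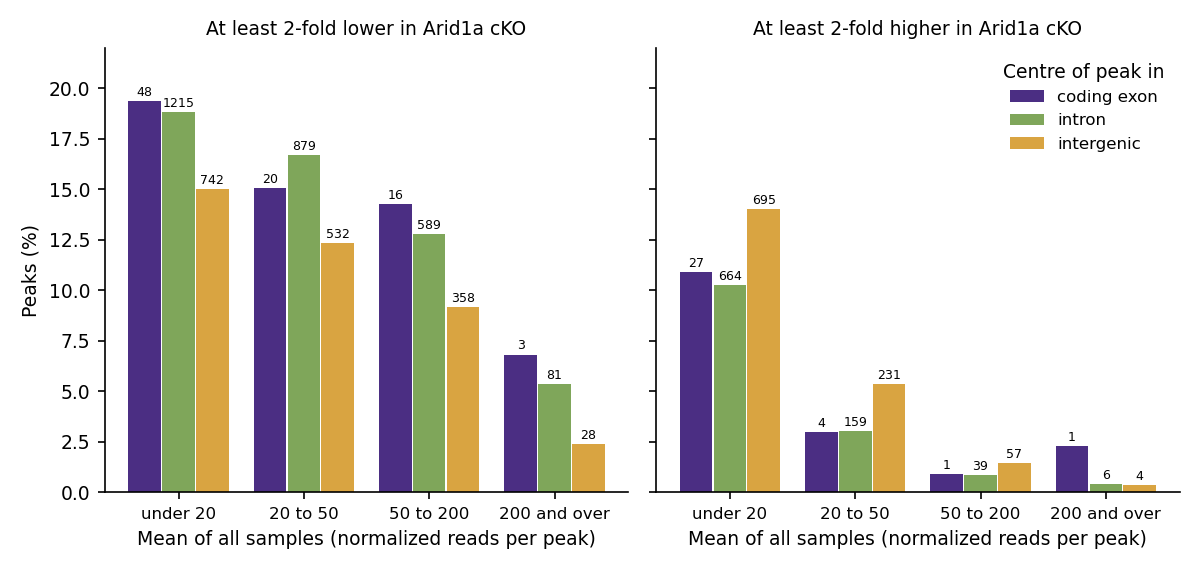
Share of peaks at least 2-fold lower (left) and at least 2-fold higher (right) in *Arid1a cKO*, in percent, by mean normalized reads over all samples, for peaks centred in coding exons, introns and intergenic sequence, with the number of called peaks above each bar. Lower shares fall with level from 19.4% to 6.82% in coding exons, and higher calls number 27 of 33 under 20 reads.

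The strongest coding-exon peaks were all wide, and none of the 8 with the highest mean was called. Of these 8, 6 reached over a curated start of their own gene with their edge (*S1pr1*, *Hspb7*, *Plk2*, *Itpkb*, *Nfe2l1* and *Dusp7*), so their reads include those at the start. *S1pr1*, a sphingosine-1-phosphate receptor, had 1585 reads in control and 1305 in *Arid1a cKO* (-0.28). *Hspb7*, a small heat shock protein of heart and skeletal muscle, had 1468 and 1278 reads (-0.20). *Plk2* stood at -0.11, *Itpkb* at -0.03, *Nfe2l1* at -0.35, *Dusp7* at -0.01 and *Pam* at -0.05. These 7 thus stayed within 2-fold, with differences from -0.35 to -0.01. The peaks with the most coding sequence included those of *Akap13*, *Usf3*, *Pdzd2* and *Mprip*. These held between 2923 and 3204 coding bases, their differences ran from -0.75 in *Usf3* to 0.45 in *Pdzd2*, and none was called. The *Mprip* peak of 2923 bp lay wholly inside 1 coding exon.

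Coding-exon peaks were narrower than intronic ones, with a median width of 1328 bp (quartiles 874 and 2167) against 1640 bp. Per kb of peak, their median level was 17.6 normalized reads, against 18.3 in introns, 19.5 between genes and 57.9 near starts. A median of 23.6% of the peak was coding and 29 peaks were coding throughout, so most of these peaks also covered intron or untranslated sequence. The median coding exon at the centre was 203 bp long, and 78 peaks were centred on exons of at least 1000 bp. The exon was internal in 367 peaks, the last coding exon in 111, the first in 42 and the only one in 17. Lower peaks made up 16.3% of those on internal exons, 17.1% on last exons and 11.9% on first exons, of which 5 were lower and 0 higher.

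The coding-exon peaks were richer in GC than intronic ones, with a median GC content of 50.7% against 46.5%. The ratio of observed to expected CpG was 0.293 against 0.210 in introns and 0.592 near starts. Divided into 4 sets by GC content, the peaks of the set lowest in GC were lower in 20%, the next in 15.7%, the third in 18.7% and those of the highest in 10.4%. The shares did not fall steadily, and the part of base composition in this was not tested. A predicted transcription start, not in the curated set, lay within 2000 bp of 33 coding-exon peaks. Of these 33 peaks, 1 was lower and 0 were higher. Coding sequence made up 3.096% of gene bodies beyond 2000 bp from any start, and 2.83% of the 18952 peaks there were centred on it. Peak centres thus fell on coding sequence about as often as its length alone gives.

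Peaks on either side of the rule's limits had differences under 2-fold. Just inside the width limit were *Hspb7* (9762 bp, -0.20) and *S1pr1* (9197 bp, -0.28), and just outside were *Pik3ip1* (10035 bp, -0.21) and *Fzd4* (10285 bp, 0.09). Just inside the distance limit were *Gipc3* (2029 bp, 0.88) and *Fxyd2* (2039 bp, -0.05), and just outside were *Grrp1* and *Clec11a*, both at 1983 bp, with differences of 0.01 and -0.02.

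Giant sarcomere genes held several coding-exon peaks. *Ttn*, which encodes the molecular spring titin, had 6 over its 312 coding exons. The strongest, at chr2:76804954-76809342 on exon 188, had 261 reads in control and 167 in *Arid1a cKO* (-0.65). It lay 175.4 kb from the start of the gene and had 59.6 and 38.0 reads per kb, against 99.1 and 85.1 for the peak at the start. The 1 lower peak, on exon 74, had 16.7 and 4.29 reads (3.89-fold lower). The others stood at -0.47 on exon 79, -0.33 on exon 54, 0.51 on exon 41 and 0.04 on exon 3. All 6 share the gene and the same libraries, so they are not independent measures of it, and the 4 weak ones within 2-fold had control means between 4.99 and 28.1 reads.

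**Figure D4:**
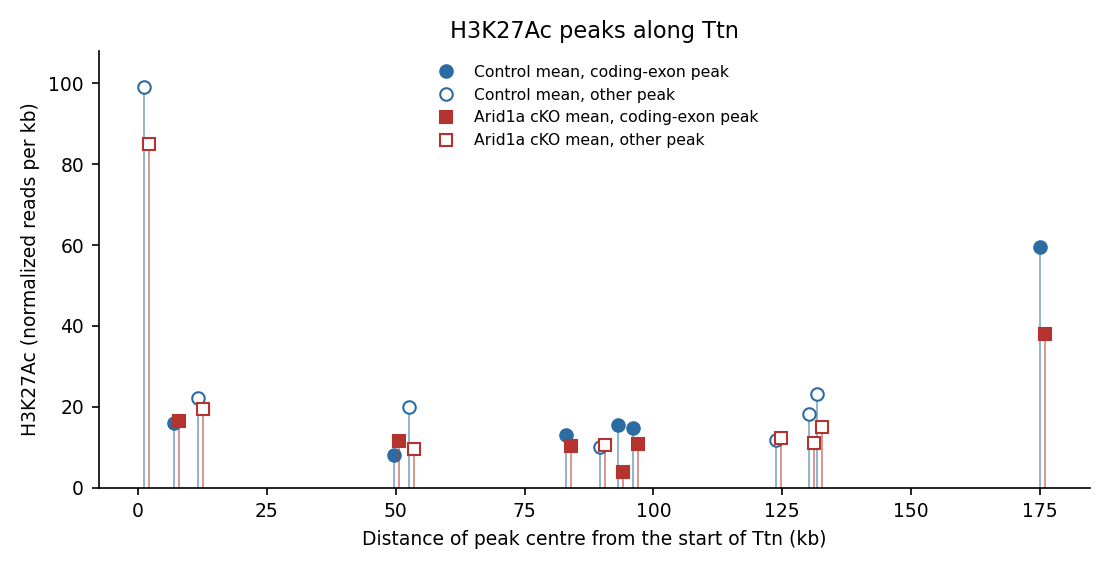
H3K27Ac along *Ttn* in normalized reads per kb of peak, by distance of the peak's centre from the start of the gene in kb, with control means in blue circles and *Arid1a cKO* means in red squares, filled for the 6 coding-exon peaks and open for other peaks. The peak at 175.4 kb stands above the other coding-exon peaks in both groups, at 59.6 and 38.0 reads per kb.

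The sarcomere and Z-disc list, with 48 genes, held 14 coding-exon peaks in 7 genes. Of these, 10 were below 0, 1 was lower and 0 were higher, with a median difference of -0.31 beside -0.03 over all 537. Of all 537, 16.2% were lower and 6.15% higher. The 2 peaks of *Myh7*, the β myosin heavy chain of the fetal ventricle, had 50.2 and 56.5 reads (0.17) and 47.5 and 49.2 reads (0.05). The 2 peaks of *Mybpc3*, a thick filament protein, stood at -0.28 and -0.05. *Neb* had 65.8 and 44.0 reads (-0.58), *Alpk2* had 41.1 and 25.6 (-0.68), and *Xirp1* stood at -0.12. The list's differences were thus mostly small and negative.

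The costamere, dystrophin and intercalated disc list held 8 peaks, of which 2 were lower and 1 higher. Over all 537 coding-exon peaks, 16.2% were lower and 6.15% higher. Beside *Lama5*, the cytolinker *Dst* was lower over exon 93, from 8.06 reads to a floor-level 2.38 (at least 2.69-fold), while its other coding-exon peak stood at 0.70. *Sptb*, β-spectrin of the red cell and muscle membrane, was at least 3.31-fold higher, from the floor to 9.92 reads. *Vcl*, encoding the adhesion protein vinculin, had 20.7 and 11.4 reads (-0.86).

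Both peaks in genes of the energy metabolism list were lower. *Slc27a1*, a fatty acid transporter, had 19.7 reads in control and 4.29 in *Arid1a cKO* (4.59-fold lower) over coding exon 2. *Ckm*, muscle creatine kinase, had 9.92 reads and a floor-level 1.89, at least 3.31-fold lower. The calcium handling and ion transport list held 2 peaks, neither of which was called. A list with 2 members allows no statement beyond their values.

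Cardiac transcription factor and chromatin regulator genes held 6 peaks, of which 2 were lower, beside 16.2% of all 537 coding-exon peaks. *Nfatc2*, a calcineurin-dependent factor, had 50.6 and 12.8 reads (3.94-fold lower) on its last coding exon. *Thra*, the thyroid hormone receptor α, had 19.0 and 7.57 reads (2.51-fold lower). *Smarca2*, an ATPase of the SWI/SNF complex, had 49.5 and 69.6 reads (0.49), and *Kmt2a* stood at 0.58, *Irx4* at 0.38 and *Meis2* at -0.85. The Hippo pathway and TEAD target list held *Vgll4* (-0.31), *Vgll3* (0.22) and *Ptpn14* (-0.74), with no call. The cell cycle list held *Mcm3* alone (-0.06).

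The growth factor and adrenergic signalling list held 11 peaks, with 3 lower and 2 higher. All 537 coding-exon peaks had 16.2% lower and 6.15% higher. *Insr*, the insulin receptor, had 45.3 reads in control and 12.3 in *Arid1a cKO* (3.68-fold lower) over coding exon 3. *Adra1b*, the α1B adrenergic receptor, had 8.40 reads and a floor-level 1.91, at least 2.80-fold lower. *Akap6*, a scaffold of protein kinase A at the nuclear envelope, was at least 4.42-fold higher, from the floor to 13.3 reads. *Notch3*, a receptor known from vascular smooth muscle, had calls in both directions. It was the 1 such gene among the 21 with more than 1 coding-exon peak. Its last coding exon had 79.3 and 29.0 reads (2.73-fold lower), and exon 24 had 4.20 and 9.99 reads (2.38-fold higher). The remaining 6 peaks of the list, among them 2 of *Akap13* (-0.11 and 0.53), were not called.

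The 6 peaks in genes of the fibroblast and matrix list were all above 0, with a median of 0.35, and none was called. *Fbn2*, a microfibril protein, had 44.3 and 76.1 reads (0.78), and *Col5a1* had 10.6 and 19.4 (0.87). *Lamc1* (0.45), *Col1a2* (0.25), *Mmp2* (0.24) and *Thbs2* (0.02) made up the rest. Of 3 endothelial peaks, *Kdr*, the VEGF receptor, was higher, from 5.35 to 14.7 reads (2.75-fold), and *Robo4* (0.07) and *Tal1* (-0.13) were not called. Beside the 2 *Notch3* peaks, the smooth muscle and pericyte list held 2 of *Pdgfrb* (0.35 and -0.23), *Smtn* (0.37) and *Kcnj8* (0.53), with no call. The 22 genes of the leukocyte marker list held 0 coding-exon peaks, while *Itgal*, which is not in that list, held the one given above. Over all lists, 48 of 513 genes held 60 coding-exon peaks, of which 10 were lower and 4 higher, with a median of -0.02. The lists together thus sat near the 537, of which 16.2% were lower and 6.15% higher.

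The levels at the starts of cell type marker genes stand beside these values. All 16 cardiomyocyte markers had a peak over a curated start, with a median difference of -0.23 and summed means of 35016.5 and 31458.4 reads. Of 43 fibroblast and matrix markers, 40 had one, with a median of 0.35 and sums of 24036.5 and 26161.7 reads. Of 26 endothelial markers, 25 had one, with a median of 0.05. Only 7 of 22 leukocyte markers had one, and 0 of 15 genes of liver, neuron and pancreas had one. The part of cell makeup in the differences of the coding-exon peaks was not tested. At the *Arid1a* promoter, the peak had 1607 and 1663 reads (0.05), which does not check the deletion, since the mark at the promoter need not report on the floxed exons.

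Most genes with a coding-exon peak also had a peak over a curated start of their own. Of the 537 coding-exon peaks, 404 were in such a gene, and another 14 reached over the start themselves. The start peak was denser per kb in 365 of the 404, with a median ratio of 3.96. Among the 87 lower coding-exon peaks, 74 had a start peak of the same gene. The median difference of those start peaks was -0.11, and 0 of the 74 were called lower. The 18 start peaks of higher coding-exon peaks had a median of 0.08, with none called. Of the 312 start peaks of uncalled coding-exon peaks, 3 were lower. Calls were rare near starts in general, at 2.14% lower and 1.59% higher, so these counts are close to that background.

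Intronic peaks of the same gene were called more often than start peaks, which is also so in general. The start peak was the strongest over a start of the gene, and strong peaks were called less often. A wide peak centred in an intron can also be the start peak, as in *Notch3*, so the 2 sets overlap. Of all intronic peaks, 15.5% were lower, against 2.14% of peaks near starts. Intronic peaks were counted anew for each coding-exon peak of their gene. Over all 537 coding-exon peaks, 250 of 1717 intronic peaks so counted were lower. The genes of the lower coding-exon peaks held 273 intronic peaks, of which 65 were lower. Those of the uncalled ones held 1319, of which 181 were lower. A gene with several coding-exon peaks, such as *Ttn* or *Dst*, can enter both of these sets. Of the 58 lower peaks whose gene had an intronic peak, 33 (56.9%) had at least 1 that was lower, against 39.5% of 238 uncalled peaks and 14.3% of 21 higher ones. The gene's median intronic difference was -0.40, -0.05 and 0.19 in these 3 sets. Across genes, the coding-exon difference had a Spearman rho of 0.21 with the start peak (Pearson r 0.18, n = 404) and of 0.36 with the intronic median (Pearson r 0.31, n = 317). These values describe peaks of the same 4 ChIP libraries, and genes with several peaks enter more than once.

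**Figure D5:**
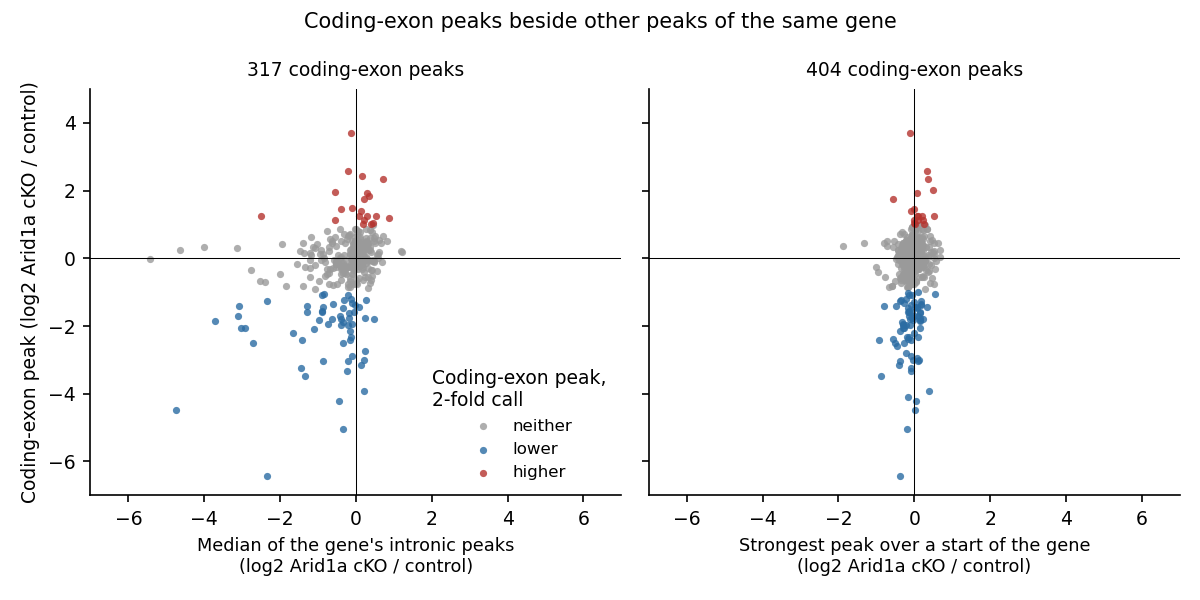
Difference of each coding-exon peak (y axis, log2 *Arid1a cKO* over control) against the median of the intronic peaks of its gene (left, 317 peaks) and the strongest peak over a start of its gene (right, 404 peaks), coloured by 2-fold call. Start peaks stay between -1.88 and 0.69, while intronic medians reach -5.42 beside an uncalled coding-exon peak and -4.74 beside a lower one.

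In the 21 genes with more than 1 coding-exon peak, the peaks often differed from each other. These genes held 47 of the peaks, and the median range within a gene was 0.64 on the log2 scale. In 14 genes no peak was called, and in 0 were all peaks lower. The 3 peaks of *Dip2b* stood at 0.16, 0.63 and -1.37. The 2 peaks of *Usf3* were alike at -0.75 and -0.64, and those of *Sptbn5* were furthest apart.

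Motif cores of 5 factor families were counted in the central 300 bases on both strands, as a description of sequence. The MEF2 core, an A/T-rich site of a factor family known for muscle genes, was found in 3 coding-exon peaks (0.56%), against 2.05% of intronic and 1.64% of all peaks. All 3 were lower in *Arid1a cKO*. In intronic peaks the core was in 3.55% of lower and 1.78% of the other peaks. The 3 cores are shown with 20 bases on each side, on the strand of the gene and with the core in capitals, since they show what sequence lay under these lower peaks.
*Ccdc150*, chr1:54355657-54355706 (+ strand): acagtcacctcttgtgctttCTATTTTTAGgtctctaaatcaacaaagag
*Nfatc2*, chr2:168519589-168519638 (- strand): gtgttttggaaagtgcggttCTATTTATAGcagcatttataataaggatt
*Vmn2r3*, chr3:64259648-64259697 (- strand): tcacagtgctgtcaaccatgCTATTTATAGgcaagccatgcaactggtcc

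The *Ccdc150* and *Nfatc2* cores lay in introns beside the exon, and the *Vmn2r3* core lay inside coding sequence. *Ccdc150* had 19.0 and 3.78 reads (-2.33), *Nfatc2* -1.98 as above, and *Vmn2r3* 85.0 and 22.3 reads (-1.93). *Vmn2r3* belongs to the vomeronasal receptors, a large family of related genes. Whether its reads mapped to it alone was not tested, so its read counts are uncertain. In whole peaks the MEF2 core was in 8 of the 87 lower peaks (9.20%) and in 16 of the other 450 (3.56%).

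The nuclear receptor half-site AAGGTCA, bound by the ESRR family, was in 8.19% of coding-exon peaks, 8.25% of intronic peaks and 7.04% of all peaks. It was in 12 of the 87 lower peaks (13.8%) and in 7.11% of the other 450, and in introns in 10.96% of lower and 7.76% of the other peaks. Over whole peaks it was in 36.8% of the lower and 32.0% of the other coding-exon peaks, so the gap was small there. In the central 300 bases, 4 of the 33 higher peaks held it (12.1%), a share near that of the lower peaks. The TEAD core CATTCC was in 13.8% of coding-exon peaks against 18.5% of intronic ones, and the GATA core AGATAA in 10.99% against 16.0%. The E-box CACGTG was in 7.08% against 4.48%. By call, the TEAD core was in 12.6% of the 87 lower peaks and 14.0% of the other 450. Those 450 include the 33 higher peaks, of which 2 held it (6.06%). The GATA core was in 12.6% of lower, 10.7% of other and 9.09% of higher peaks. For the E-box these shares were 9.20%, 6.67% and 3.03%. A match or its absence says only whether these letters are in the window, and the higher GC content of coding-exon peaks moves with the lower shares of the A/T-rich cores.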

How the data were processed

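H3K27Ac ChIP-Seq was made from P7 ventricles of 2 *Arid1a* f/f controls and 2 aMHC-Cre;*Arid1a* f/f mutants, with 1 input library per heart, and the labels' genotype and antibody set the groups. The authors aligned the libraries to the mm10 genome using BWA 0.7.17-r1188. Peak calling by the authors used HOMER findPeaks in its histone style, with all inputs merged as background, and peaks seen in at least 2 samples were kept. The authors' comparison of the groups used DiffBind 2.12.0 and DESeq2 1.24.0. The submitters' processing notes name HOMER 4.11. The deposited table, made by the authors, gives a log2 concentration for each peak, that is, the logarithm of its mean number of normalized reads, for all samples together and for each group. Its columns of fold change, p-value and FDR hold the authors' own comparison and were not used here. It has 0 columns of single samples. The depth per sample is therefore unknown, no replicate spread, interval or test was computed, and the difference of the 2 group concentrations is given as a description. The table does not show how scaling and any input subtraction shaped its values.

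Peaks were joined to the GRCm38 sequence and RefSeq annotation, with 45756 curated transcripts of which 37867 are coding. The last peak ended inside each of 21 chromosomes, and 7 peaks on unplaced sequences had no class. Of 1993 peaks centred on a coding exon, 24 were left out for width and 1432 for distance. Positions are 1-based. Intronic and intergenic peaks met the same limits. A start peak covers a curated start of the gene, and the strongest was taken where a gene had several. GC content and motif cores were read from the reference.

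The peaks, the 14 gene lists and the motifs were chosen with earlier results of these data known. Named peaks are the 10 lowest and 10 highest differences among peaks with at least 20 reads in the higher group, the 8 with the highest mean, those of genes with at least 4 peaks, the called peaks of the lists and the sarcomere and calcium peaks, the nearest to each limit, and the 5 with most coding bases. Others were picked after their values were seen. Some peaks that this rule names are not reported here. The steps for interval overlap, distance to a start and class of a peak were tested on simulated intervals, and the other steps were not. Python 3.11.15, numpy 2.4.6, pandas 2.3.3 and matplotlib 3.10.9 were used.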

Additional observations from a re-analysis of the deposited data

How the results depend on the processing

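Alternatives changed the width limit, the distance limit, the set of starts, the chromosomes, the centring, the floor, the fold and the treatment of low values. The number of coding-exon peaks ran from 289 to 617, and the median difference stayed between -0.05 and -0.02. The number of lower peaks was 87 in the main setting. With a mean of at least 20 reads it was 39 of 289 (13.5%, against 8.29% of all and 13.6% of intronic peaks). With 10 reads added to each group mean it was 52 (9.68%, against 6.19% of all and 8.93% of intronic peaks). With at least 200 coding bases under the peak it was 58 of 375. The shares under the first 2 alternatives were thus close to those of intronic peaks. The number of higher peaks, 33, went to 21 with at least 200 coding bases under the peak, to 73 at 1.5-fold and to 11 at 3-fold. With a mean of at least 20 reads it was 6 (2.08%, against 1.74% of all and 1.79% of intronic peaks). With 10 reads added it was 4 (0.745%, against 0.774% of all and 0.689% of intronic peaks). Under the other alternatives each count moved by less than 1.5 times. Motifs in whole peaks were found in more of the peaks, as longer windows hold more matches. No paired analysis was possible because the columns used hold group means and no per-sample values. For the same reason leaving out a replicate could not be run, and it is not known whether 1 of the 2 hearts of a group sets a value. Of the 537 peaks, 248 had a mean under 20 normalized reads.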
